A study of Mus musculus with 12 samples.

Results

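Long genes of the mouse brain carry many small annotated features inside their introns, and 1229 of these intron features are described here. Each is a gene of the GENCODE M21 annotation with at least 50% of its exon bases inside exactly 1 gene of the opposite strand, called its host, with at most 10% of those bases inside any other gene and at least 80% of the overlap over host introns. The host spans more than 100 kb, small RNA and pseudogene biotypes were left out, and a mean of at least 1 CPM (counts scaled to the same total of gene counts in each library) over the 12 libraries was required. Of 55471 features in the count files, 1552 met the rule on position and 1229 of them the rule on level, and no change between groups entered the choice. The members lie in 828 hosts, 580 of them with a single member.

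The 4 groups, with 3 libraries each, came from mixed cortex and hippocampus of adult male C57BL6JL mice aged 3 to 5 months. MECS mice received a maximal electroconvulsive shock of 85 mA for 1 s through ear clips (100 Hz, pulses of 0.5 ms), had generalised convulsions and were killed 90 min later, and naive mice were handled in parallel without the shock. Tissue of both kinds was crosslinked with ultraviolet light at 400 mJ/cm2 and lysed. From each lysate, RNA bound to U1-70K, the Snrnp70 protein of the U1 particle, was immunoprecipitated (U1 libraries), and a portion of the lysate was kept as input. The groups are therefore MECS U1, naive U1, MECS input and naive input. The sample names tie each U1 library to the input of the same animal. No precipitate with a control antibody was analysed here, so a U1 to input ratio also holds whatever the antibody and beads bound unspecifically.

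U1 is the small nuclear ribonucleoprotein that base-pairs with the 5′ splice site at the end of an exon and starts spliceosome assembly. U1 also binds at splice-site-like sequences within introns and keeps polyadenylation signals there from being used, a role called telescripting that is best known in long genes. In neurons, activity switches on transcription of synaptic, signalling and growth factor genes, many of which have very long introns.

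The libraries hold 704432 (naive input 2) to 1962312 (naive U1 2) counts in genes, which is 1.42% to 1.84% of the reads listed in the files, and 88.3% to 91.3% of the listed reads were in no feature. The library kit keeps strand, but no source at hand states whether the counting used it, so reads of a member and reads of its host cannot be told apart. For example, the own row of Slc1a2, the main glial glutamate transporter, was low for such an abundant transcript. It averaged 109 CPM over 13133 exon bases, while the intron feature inside it averaged 2940 CPM over the same 12 libraries. Marker genes of neurons, astrocytes, oligodendrocytes, microglia, endothelium and smooth muscle were all above 0 in at least 1 library, so the labelled brain tissue was represented, but the groups differed in them. The 8 neuronal markers together had 100.3 to 142.3 CPM in MECS U1 and 88.1 to 190.2 CPM in naive U1, against 243.9 to 362.7 CPM in MECS input and 243.7 to 408.3 CPM in naive input. In bulk tissue, fewer cells of a type and less RNA per cell cannot be told apart.

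Windows from 5 members give examples of their annotated sequence, and they were chosen because the results below turn on these members. The counts do not say where in a member its reads fell. All are read from GENCODE M21 transcripts (GRCm38, mm10) and printed 5′ to 3′ on the host strand. The first 3 are 200-base windows of host intron, inside Gm37024 in Mecom (chr3:30488759-30488958, minus strand), Gm12158 in Ebf1 (chr11:44662371-44662570, plus strand) and A430028G04Rik in Ppm1h (chr10:122757816-122758015, plus strand). The capitals in the Ebf1 window mark AATAAA, the hexamer of most polyadenylation signals. The last 2 show a coding host exon in capitals with 40 intron bases on either side, within Gm13872 in Slc1a2 (chr2:102743768-102744013, plus strand) and Rapgef4os2 in Rapgef4 (chr2:72224921-72225089, plus strand). Both exons are preceded by ag and followed by gt, the letters of a 3′ and a 5′ splice site, and the 5′ splice site is where U1 pairs.
Gm37024: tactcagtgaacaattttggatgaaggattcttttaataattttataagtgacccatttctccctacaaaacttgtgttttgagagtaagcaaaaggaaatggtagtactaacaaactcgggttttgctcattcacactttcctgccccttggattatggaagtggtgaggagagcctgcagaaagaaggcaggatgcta
Gm12158: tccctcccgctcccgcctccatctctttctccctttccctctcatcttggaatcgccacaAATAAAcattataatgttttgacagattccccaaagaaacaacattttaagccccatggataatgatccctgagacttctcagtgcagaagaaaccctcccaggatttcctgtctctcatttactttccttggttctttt
A430028G04Rik: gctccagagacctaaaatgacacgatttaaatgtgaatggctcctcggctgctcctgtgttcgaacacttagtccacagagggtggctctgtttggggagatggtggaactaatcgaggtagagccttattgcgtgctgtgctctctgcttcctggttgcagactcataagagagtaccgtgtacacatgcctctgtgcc
Gm13872: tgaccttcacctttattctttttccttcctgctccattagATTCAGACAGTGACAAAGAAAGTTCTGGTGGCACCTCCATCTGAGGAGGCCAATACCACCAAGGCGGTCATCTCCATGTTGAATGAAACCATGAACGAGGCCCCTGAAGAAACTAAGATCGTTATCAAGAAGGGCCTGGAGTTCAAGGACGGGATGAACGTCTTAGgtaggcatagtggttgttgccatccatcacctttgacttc
Rapgef4os2: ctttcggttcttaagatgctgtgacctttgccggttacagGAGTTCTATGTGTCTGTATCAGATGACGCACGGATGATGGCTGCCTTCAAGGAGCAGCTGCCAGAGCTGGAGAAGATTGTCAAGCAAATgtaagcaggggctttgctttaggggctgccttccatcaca
Among the 1127 members with such an intron window, GTAAGT, a 6-base match to U1 RNA at a 5′ splice site, was on the host strand of 2.8% of the windows and on the member strand of 2.2%. AATAAA was on the host strand of 9.1% and on the member strand of 10.7%. Members higher with U1 in either state held GTAAGT on the host strand in 3 of 71 windows (4.2%), members lower with U1 in 2 of 33 (6.1%) and members higher after MECS in 1 of 25 (4.0%). These counts of 1 to 3 windows are too small to set the sets apart, and a match is a string of letters, not a bound site.

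Most members are noncoding annotations: 633 antisense genes, 150 of the provisional class TEC, 97 lincRNAs and 34 processed transcripts, next to 279 protein-coding genes and 32 rRNA copies. For 1079 members the host is protein-coding. The median host spans 236.1 kb, the median member lies 114.0 kb from the host start, and the intron around it has a median of 44.7 kb. A member's distance is that of the mean position of its exon bases inside the host, which for a long member differs from the middle of its span. By distance from the host start, 138 members lie under 25 kb, 125 at 25 to 50 kb, 278 at 50 to 100 kb, 282 at 100 to 200 kb and 406 at 200 kb or more. The nearest are A830035A12Rik, 0.2 kb into the helicase gene Helz, and Gm10322, 0.5 kb into Mcu, which encodes the mitochondrial calcium uniporter. The farthest are Taf5l at 4092.4 kb and Acta1 at 3982.0 kb, both inside Gm20388, an annotated span of 4434.9 kb that alone holds 27 members. At the edges of the rule, Gm13708 in Wipf1 (100.1 kb) and Gm34006 in Scml4 (100.4 kb) were just inside, and n-R5s178 in Gtf2ird1 (99.1 kb) and Gm48293 in Clmp (99.4 kb) just outside. On level, Klk13 (1.01 CPM) and Gm26815 (1.05 CPM) were just inside, and Tigd4 (0.976 CPM) and Gm38314 (0.996 CPM) just outside. A base of host exon is touched by 241 members (19.6%), and 988 lie in host intron throughout.

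The members took a larger share of all gene counts after MECS than in naive mice, in precipitates and in input. The share was 12.29%, 12.44% and 12.2% in MECS U1, against 10.82%, 11.78% and 9.649% in naive U1. It was 11.25%, 12.91% and 12.4% in MECS input, against 9.914%, 10.47% and 10.83% in naive input. Within each kind of library the 3 MECS values lay above the 3 naive values, and an exact permutation test cannot go below 0.10 with 3 animals against 3.

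**Figure D1:**
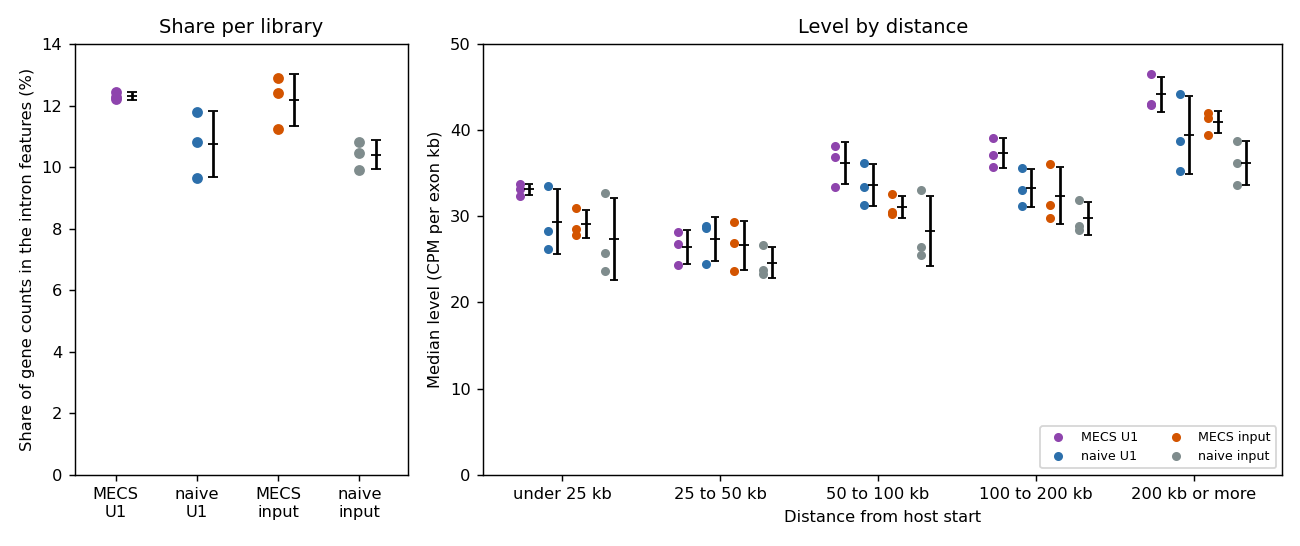
Left, share of gene counts in the 1229 members per library (percent), with points for libraries and bars for the group mean and SD of 3 libraries, U1 groups left of input groups and MECS left of naive. Right, median CPM per kb of exon over the members of each of 5 bins of distance from the host start, drawn the same way. On the left, MECS points lie above naive points within U1 and within input. On the right, MECS and naive points overlap in some bins, and the mean level is highest in the bin of 200 kb or more in all 4 groups.

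Across hosts, level per length did not fall with distance from the host start. The median CPM per kb of exon, from the nearest to the farthest of the 5 bins, was 33.1, 26.5, 36.2, 37.3 and 44.2 in MECS U1 and 29.4, 27.3, 33.6, 33.3 and 39.4 in naive U1. In MECS input it was 29.1, 26.6, 31.1, 32.4 and 40.9, and in naive input 27.4, 24.6, 28.3, 29.8 and 36.2. The bin of 200 kb or more had the highest median in each of the 12 libraries, and only hosts over 200 kb can reach it, so these bins compare different hosts. Within hosts the order turned round. In 187 hosts with at least 2 members free of host exon, the farthest minus the nearest member's log2 level per exon kb had a median of -0.42 to -0.40 in the MECS U1 libraries, -0.37 to -0.32 in the naive U1 libraries, -0.42 to -0.37 in the MECS input libraries and -0.49 to -0.33 in the naive input libraries. The farther member was the denser one in 34.2% to 40.6% of these hosts.

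Distance from the last host exon passed showed a steeper order across hosts than distance from the host start. Among the members free of host exon, the median level per exon kb was 56.5 CPM in MECS U1, 49.4 in naive U1, 53.0 in MECS input and 46.3 in naive input where the upstream exon was under 5 kb away (152 members). Where it was 100 kb or more away (138 members), the level was 20.8 CPM in MECS U1, 18.1 in naive U1, 16.9 in MECS input and 17.2 in naive input. The bins between, at 5 to 25 kb and 25 to 100 kb, lay between these values in every group. The lowest library of the nearest bin had 42.8 CPM per exon kb and the highest of the farthest bin 25.6, so the libraries of these 2 bins did not overlap. Only introns over 100 kb can reach the farthest bin, so these bins compare different introns and hosts. No comparison within hosts was made for this distance.

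Hosts with many members show how uneven single introns are. In Tenm4, which encodes a teneurin adhesion protein of synapse partner choice, 6 members run along 169.2 to 692.1 kb. The second of them, Gm15414 at 433.6 kb, had the highest level per exon kb in all 4 groups (163.1 CPM in MECS U1, 147.5 in naive U1, 182.1 in MECS input and 139.3 in naive input). In Sox2ot, the long noncoding host around the stem cell factor Sox2, the farthest of 6 members, Gm42693 at 559.7 kb, was the densest (87.1 CPM per exon kb in MECS U1, 82.5 in naive U1, 84.6 in MECS input and 88.7 in naive input). In Immp2l, which encodes a mitochondrial inner membrane peptidase, the levels of 7 members were highest in all 4 groups at 319.9 and 363.3 kb and lowest at the ends, with Gm46348 at 900.5 kb at 5.25 CPM per exon kb in MECS U1, 2.4 in naive U1, 1.79 in MECS input and 3.0 in naive input. The 10 members in Gm26904 and 7 in Fgfr2 are mostly protein-coding genes, and their levels differed widely. In naive input these ran up to 26.0 CPM per exon kb in Fam24a and 23.3 in Ppp2r5d, a regulatory subunit of protein phosphatase 2A, and down to 0.209 in Plekha1, a phosphoinositide-binding protein.

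The most abundant members did not follow the distance order either. Gm13872, 85.4 kb into Slc1a2, led. It was followed by Gm47472 in Syt1, the calcium sensor of synaptic vesicle release, and by members of Cacna2d3 (a calcium channel subunit), Snhg14 (the long noncoding RNA antisense to Ube3a), Pcdh9 (a protocadherin) and Pex5l. Gm47472, 230.4 kb into Syt1, had 1637.1, 1560.7 and 1768.0 CPM in MECS U1, 1249.7, 1498.8 and 1087.7 CPM in naive U1, 1497.9, 1860.8 and 1815.5 CPM in MECS input and 1246.1, 1258.3 and 1538.7 CPM in naive input. MECS libraries were higher than naive ones in U1 without overlap and overlapped in input. The MECS over naive change did not pass in either kind (log2 change 0.36 ± 0.15 (SE) in U1, adjusted p = 0.355; 0.33 ± 0.16 in input, adjusted p = 0.488; edgeR's quasi-likelihood test).

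How strongly the members came down with U1 was asked next, by comparing precipitate with input in each state. Members lower with U1 were nearly all features over a host exon, in neuronal genes such as Rapgef4, Itpr1 and Gabra5 or in the astrocyte gene Slc1a2. Members higher with U1 lay mostly inside introns, as did all members tested, and some were in smooth muscle and vascular genes. They touched a host exon somewhat more often than all tested (29.2% against 20.0% in MECS mice, 26.6% against 20.2% in naive mice). The median distance from the host start was 103.2 kb for the higher and 154.4 kb for the lower members in MECS mice and 91.3 kb for the higher and 148.3 kb for the lower ones in naive mice, against 117.1 kb over all tested in MECS mice and 117.0 kb in naive mice. With edgeR's quasi-likelihood test at an adjusted p under 0.05 over all features, 48 of 982 tested members were higher and 28 lower with U1 in MECS mice, where 3.3% of all tested features were higher and 5.21% lower (8.51% in either direction). In naive mice 64 of 975 were higher and 31 lower, where 4.19% of all tested features were higher and 6.26% lower (10.5% in either direction). In percent of the members tested this is 4.89% higher and 2.85% lower in MECS mice, and 6.56% higher and 3.18% lower in naive mice. The median member was higher with U1 by 0.10 on the log2 scale in both states, against 0.02 over all tested features in MECS mice and 0.03 in naive mice.

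The 2 states gave overlapping lists. Of the members higher with U1, 34 were shared, 70.8% of the MECS list and 53.1% of the naive one. Of those lower, 25 were shared, 89.3% of the MECS list and 80.6% of the naive one. A fit of the MECS libraries with the animal as a block raised the MECS count to 92 higher and 36 lower. Scaling by library size alone in naive mice gave 85 higher and 24 lower. Leaving out naive input 1 lowered the naive count to 53, and leaving out MECS input 3, MECS U1 1 or MECS U1 2 lowered the MECS count to 49, 44 or 48.

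**Figure D2:**
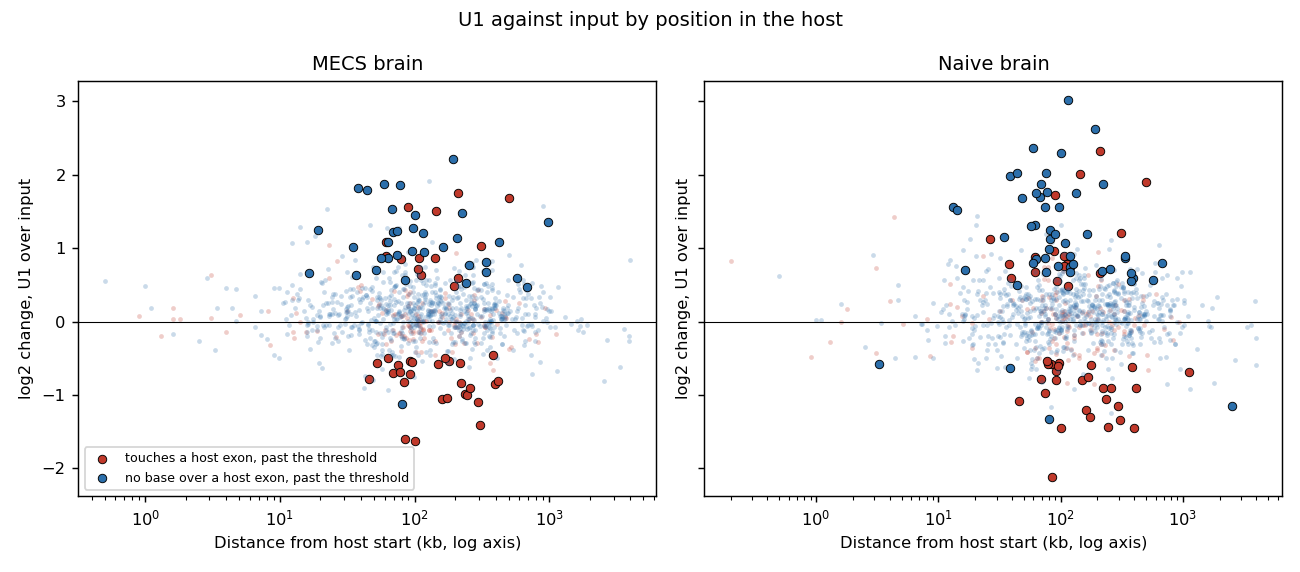
Log2 U1 over input of each tested member against distance from the host start (log axis, kb), MECS mice in the left panel and naive mice in the right. Large points passed at an adjusted p under 0.05, and pale small ones did not. Red marks members that touch a host exon and blue those with no base over one. Large points lie from under 25 kb to over 200 kb, and most large points below 0 are red.

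By bin from the nearest to the farthest, members higher with U1 numbered 2, 4, 17, 11 and 14 in MECS mice and 3, 8, 24, 15 and 14 in naive mice. These are 1.85%, 4.26%, 7.62%, 5.09% and 4.11% of those tested in MECS mice (3.3% over all tested features). In naive mice they are 2.8%, 8.79%, 10.8%, 6.98% and 4.13% (4.19% over all). Members lower numbered 0, 1, 11, 6 and 10 in MECS mice and 1, 2, 11, 6 and 11 in naive mice. These are 0.0%, 1.06%, 4.93%, 2.78% and 2.93% in MECS mice (5.21% over all). In naive mice they are 0.935%, 2.2%, 4.93%, 2.79% and 3.24% (6.26% over all). The log2 ratio per animal, taken as the median of members under 50 kb minus that of the rest, was 0.037 ± 0.030 in MECS mice and 0.057 ± 0.030 in naive mice (SD, n = 3 animals each). Without the members over host exons it was 0.004 in MECS mice and 0.018 in naive mice. Across tested members, Spearman's rho between the U1 to input change and distance was -0.05 in MECS mice (982 members) and -0.04 in naive mice (975). With the length of the surrounding host intron rho was 0.18 in MECS mice and 0.15 in naive mice. These are descriptions over members that share the same 12 libraries. The share of member counts within 50 kb of the host start was higher with U1 in every library, at 14.7% ± 0.279 in MECS U1 and 14.9% ± 0.575 in naive U1, against 13.4% ± 0.110 in MECS input and 13.3% ± 0.657 in naive input (SD, n = 3 each). Within 100 kb it was 35.9% in MECS U1 and 36.4% in naive U1, against 36.1% in MECS input and 37.2% in naive input, so the order turned with the limit. The share of member counts in features over host exons differed the other way, at 26.11% to 26.92% in MECS U1 and 25.44% to 27.68% in naive U1, against 30.54% to 34.14% in MECS input and 31.28% to 36.94% in naive input.

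Of the members lower with U1, 27 of 28 in MECS mice (96.4%) and 27 of 31 in naive mice (87.1%) touched a host exon. Among all members tested 20.0% did so in MECS mice and 20.2% in naive mice, and among those higher with U1 29.2% in MECS mice and 26.6% in naive mice. The lower members sat in short introns late in the host, with a median surrounding intron of 3.5 kb in MECS mice and 4.5 kb in naive mice, against 42.6 kb over all tested in MECS mice and 42.5 kb in naive mice. Their median position was at 0.78 of the host length in MECS mice and 0.80 in naive mice. Taking the median over all members in each animal, the log2 ratio of those over host exons minus that of the others was -0.161, -0.160 and -0.211 in the 3 MECS mice and -0.233, -0.229 and -0.026 in the 3 naive mice. It was below 0 in all 6 mice and closest to 0 in naive mouse 3. The called lower members depended on naive U1 2: without that library 50 members were lower in naive mice, of which 29 touched a host exon and 21 did not.

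**Figure D3:**
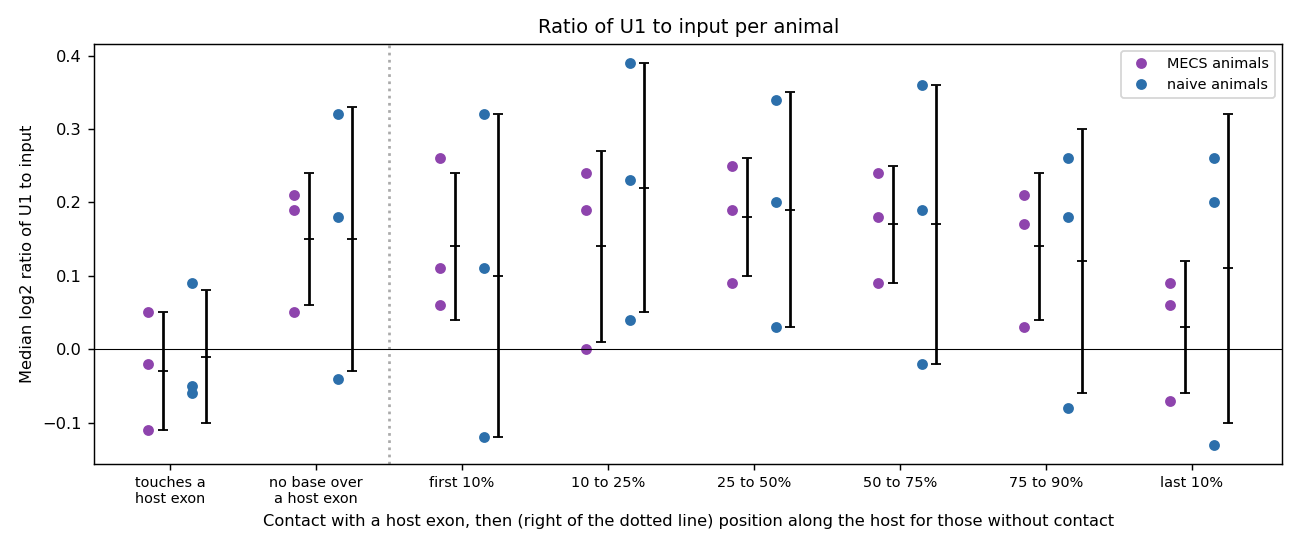
Median log2 U1 over input in each animal, with the mean and SD of 3 animals and MECS mice left of naive mice, for members with and without host exon contact and, right of the dotted line, for those without contact by position along the host. Members over a host exon lie below members without one in each of the 6 animals, while the position bins of members without host exon overlap.

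The counted features hold the exon together with intron around it. Of the 241 members over a host exon, 91 cover at least 1 whole host exon with 40 bases on either side (119 exons, 87 with AG before and GT after, 78 wholly coding). Of the 34 members lower with U1 in either state, 30 touch a host exon and 15 cover whole ones (20 exons, 18 with AG and GT). Of the 78 higher with U1, 20 touch a host exon and 9 cover whole ones (16 exons, 14 with AG and GT). A whole exon with its splice site letters, as in the Slc1a2 and Rapgef4 windows above, was therefore present in both sets.

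Gm13872, over a 166-base coding exon of Slc1a2 (chr2:102737907-102746760), had the largest drop with U1 among the members that passed in naive mice. Its level was 1418.3, 1357.9 and 1341.6 CPM in MECS U1, against 5301.2, 3683.2 and 3538.6 CPM in MECS input. In naive mice it was 1055.6, 1180.7 and 1233.8 CPM in U1, against 6227.0, 4872.5 and 4011.5 CPM in input. All 6 precipitates lay below all 6 inputs, with log2 changes of -1.60 ± 0.15 (SE, adjusted p = 3.93e-07) in MECS mice and -2.12 ± 0.18 (adjusted p = 7.73e-10) in naive mice. The host's own row moved in the same direction, by -1.84 in MECS mice and -1.87 in naive mice on the log2 scale. The 5 astrocyte markers' own rows had 79.2 to 92.6 CPM in MECS U1 and 79.5 to 131.4 CPM in naive U1, against 210.8 to 224.2 CPM in MECS input and 191.0 to 392.4 CPM in naive input. These 5 markers include Slc1a2 itself, so they are not separate from the host's own row. The part of astrocytes in the result was not tested.

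Rapgef4os2, 245.0 kb into Rapgef4, which encodes the cAMP-activated exchange factor Epac2, overlaps 337 exon bases of its host. It had 475.3, 414.9 and 428.8 CPM in MECS U1, against 1039.6, 753.1 and 851.4 CPM in MECS input, and 395.7, 374.4 and 386.5 CPM in naive U1, against 1091.3, 1223.5 and 822.0 CPM in naive input. Again no precipitate reached an input (log2 change -1.0 ± 0.14, adjusted p = 3.82e-05 in MECS mice; -1.43 ± 0.17, adjusted p = 1.52e-07 in naive mice). Rapgef4's own row had a log2 change of the opposite sign that did not pass, 0.31 in MECS mice (adjusted p = 0.778) and 1.14 in naive mice (adjusted p = 0.201). Chn1os3, 160.6 kb into the 164.7 kb gene Chn1, overlaps exons of this host, which encodes the Rac-inactivating protein chimaerin. It had 413.2, 414.1 and 451.1 CPM in MECS U1, against 923.2, 847.8 and 888.0 CPM in MECS input, and 464.5, 466.5 and 386.5 CPM in naive U1, against 1154.6, 1006.3 and 896.5 CPM in naive input. Its groups did not overlap either, with log2 changes of -1.05 ± 0.13 in MECS mice and -1.21 ± 0.16 in naive mice.

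Gm44040 is 308.2 kb into Itpr1, the IP3 receptor that releases calcium from the endoplasmic reticulum. It had 110.5, 137.8 and 111.4 CPM in MECS U1, against 337.4, 279.6 and 340.6 CPM in MECS input, and 135.2, 114.2 and 130.6 CPM in naive U1, against 383.1, 285.3 and 291.0 CPM in naive input. The groups did not overlap (log2 change -1.41 ± 0.15 in MECS mice and -1.34 ± 0.17 in naive mice). A second feature of the same gene, Gm44101 at 258.4 kb, had a log2 change of -0.91 in both states, and both stand over host exons. Itpr1's own row changed by -0.93 in MECS mice and -1.13 in naive mice, both past the threshold. Over the hosts of all lower members with a testable row of their own, 6 of 19 were lower in MECS mice and 4 of 21 in naive mice, and none was higher. Over all tested features 5.21% were lower and 3.3% higher in MECS mice, and 6.26% lower and 4.19% higher in naive mice.

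The other named members lower with U1 span neuronal genes of several kinds. Gm9962 is near the end of Gabra5, a GABA-A receptor subunit (log2 change -1.62 ± 0.24 in MECS mice, -1.45 ± 0.25 in naive mice). Gm10475 is in Reln, the secreted guidance protein reelin (-0.85 ± 0.19 in MECS mice and -1.45 ± 0.26 in naive mice), and AC148021.1 in Apba1, a synaptic adaptor (-1.04 ± 0.15 in MECS mice and -1.30 ± 0.17 in naive mice). Gm11149 is in Ncam1, the neural cell adhesion molecule (-0.99 ± 0.13 in MECS mice and -1.05 ± 0.16 in naive mice). Gm11096 is in the sodium-calcium exchanger gene Slc8a1 (-1.09 ± 0.24 in MECS mice and -1.15 ± 0.29 in naive mice), with 8 of its bases over a host exon. The 2 named lower members with no host exon base are Srf, the serum response transcription factor, inside Gm26904, and Gm20735 inside Gm20388. Their calls depended on the setting: Srf was no longer past the threshold under 7 of 15 other settings in MECS mice and 3 in naive mice, and Gm20735 under 7 in naive mice.

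Members higher with U1 in both states include features in Mylk, Mecom, Ebf1 and Kcnq1. E130310I04Rik is 208.5 kb into Mylk, the myosin light chain kinase of smooth muscle (chr16:34943175-34958994). It had 230.1, 314.6 and 186.9 CPM in MECS U1, against 61.9, 75 and 81.8 CPM in MECS input, and 249.4, 238.1 and 373.5 CPM in naive U1, against 56.4, 46.3 and 66.9 CPM in naive input. Every precipitate lay above every input, by a log2 change of 1.75 ± 0.19 (adjusted p = 1.99e-06) in MECS mice and 2.32 ± 0.20 (adjusted p = 7.73e-10) in naive mice. This member touches 548 host exon bases, so contact with an exon did not always go with a low ratio. A second Mylk member, 1700119H24Rik, lies in intron and was higher by 2.22 ± 0.54 in MECS mice and 2.62 ± 0.57 in naive mice at levels of 1.45 to 3.42 CPM in input, and its MECS call was lost without MECS U1 1 or 2.

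Gm37024 lies 59.1 kb into Mecom, the gene of the zinc finger transcription factor EVI1, in an intron of 271.1 kb. It had 64.3, 78.8 and 48.9 CPM in MECS U1, against 11.1, 18.8 and 23.1 CPM in MECS input, and 43.0, 76.5 and 75.2 CPM in naive U1, against 11.1, 20.3 and 9.78 CPM in naive input. The groups did not overlap, with log2 changes of 1.88 ± 0.27 (adjusted p = 5.7e-05) in MECS mice and 2.36 ± 0.31 (adjusted p = 1.45e-06) in naive mice. Mecomos, 501.9 kb into the same host, was higher by 1.69 ± 0.21 in MECS mice and 1.90 ± 0.28 in naive mice. These Mecom members lie at opposite ends of a 596.7 kb gene and had like ratios.

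Gm12158 lies 44.2 kb into Ebf1, a transcription factor gene, in an intron of 222.3 kb. It had 102.9, 170.7 and 81.7 CPM in MECS U1, against 33.2, 49.1 and 19.2 CPM in MECS input, and 78.6, 117.3 and 178.1 CPM in naive U1, against 23.9, 24.6 and 41.4 CPM in naive input. Precipitates and inputs were again apart (log2 change 1.79 ± 0.28 in MECS mice and 2.03 ± 0.26 in naive mice). On the list of vascular and smooth muscle hosts, 6 of 8 tested members were higher with U1 in each state and none was lower, with a median log2 change of 1.72 in MECS mice and 1.97 in naive mice. Over all tested features 3.3% were higher in MECS mice and 4.19% in naive mice. The host lists were chosen with earlier results of these data known, so such counts are descriptions. The members that passed in both states were the pairs in Mylk and in Mecom and Gm12158, with 5330439B14Rik in Abcc9 passing in MECS mice and Gm15419 in Col4a2 in naive mice. Markers of these cells moved with U1 as well: the 5 smooth muscle and pericyte markers' own rows had 126.3 to 143.0 CPM in MECS U1 and 141.9 to 201.4 CPM in naive U1, against 105.4 to 126.0 CPM in MECS input and 98.5 to 112.9 CPM in naive input. The 4 endothelial markers' own rows had 102.1 to 134.7 CPM in MECS U1 and 99.5 to 186.8 CPM in naive U1, against 52.9 to 85.8 CPM in MECS input and 67.6 to 99.9 CPM in naive input. No marker of either type was at 0 in all libraries, and the part of these cells in the result was not tested.

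Further named members higher with U1 were Gm26632 in Rbpms (an RNA-binding protein of smooth muscle, with 1.45 ± 0.29 in MECS mice and 2.30 ± 0.29 in naive mice) and Gm15475 in Dysf (dysferlin, a membrane repair protein, with 1.56 ± 0.23 in MECS mice and 1.73 ± 0.24 in naive mice). Gm44752 in the kinase gene Lrrk1 was higher by 1.86 ± 0.34 in MECS mice and 1.76 ± 0.28 in naive mice. Gm16063 lies in the noncoding host Tbx3os1 and was higher by 1.82 ± 0.37 in MECS mice and 1.99 ± 0.37 in naive mice. 4930513N20Rik in Tacc2 had 1.27 ± 0.42 in MECS mice, where it did not pass, and 2.03 ± 0.48 in naive mice, where it did. Itgb2l, an integrin beta-2-like gene inside Igsf5, was higher by 1.54 ± 0.35 in MECS mice and 1.70 ± 0.29 in naive mice. Near the host start, Gm10847, 16.5 kb into Lrch1, had the smallest p of its bin and a log2 change of 0.66 ± 0.18 in MECS mice and 0.70 ± 0.18 in naive mice. Of the hosts of the higher members with a testable row of their own, 2 of 18 were higher in MECS mice and 2 of 28 in naive mice. Over all tested features 3.3% were higher in MECS mice and 4.19% in naive mice.

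For the other host lists, the shares over all tested features were 3.3% higher and 5.21% lower with U1 in MECS mice. In naive mice they were 4.19% higher and 6.26% lower. Each list share rests on few calls. Of the members in ion channel hosts, 2 of 27 were higher (7.41%) and 4 lower (14.8%) in MECS mice. In naive mice 2 of 25 were higher (8.0%) and 4 lower (16.0%). Both higher members lie in Kcnq1, and the lower ones in both states include the pair in Itpr1 and A330093E20Rik in Kcnn2, a calcium-activated potassium channel. In hosts for kinases, phosphatases and second messengers, 3 of 32 were higher in each state (9.38%) and none lower. In hosts for synaptic adhesion and guidance, 0 of 42 were higher and 1 lower in MECS mice, and 1 higher and 1 lower in naive mice. None of 11 tested members in presynaptic hosts passed in either direction in either state. Among RNA-binding protein hosts, Gm11750 in Rbfox3, the neuronal splicing regulator NeuN, was the 1 of 10 to pass, with a log2 change of 0.33 in MECS mice, where it did not pass, and 0.74 in naive mice, where it did. In matrix protease and collagen hosts, 2 of 5 were higher in MECS mice and 1 of 5 in naive mice.

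After MECS, the members that changed all rose. In U1 libraries 17 of 1000 tested members rose and 0 fell, where 0.332% of all tested features rose and 0.0539% fell (0.386% in either direction). In input 23 of 945 rose and 0 fell, where 0.51% of all tested features rose and 0.0961% fell (0.606% in either direction). In percent of the members tested, 1.70% rose in U1 and 2.43% in input. The 2 comparisons share no library but come from the same animals, and 13 members rose in both, 76.5% of the U1 list and 56.5% of the input list. The 27 members of either list lie in 25 hosts. Of those hosts' own rows, 0 of 11 tested passed in U1 and 0 of 14 in input. These are too few rows to set against the 0.386% in U1 and 0.606% in input over all tested features. At an unadjusted p under 0.05, 29 members were lower in U1 and 15 in input, against 156 higher in U1 and 139 in input. With DESeq2 0 were lower in either kind, and 33 were higher in U1 and 28 in input. With limma-voom 0 were lower, and 15 were higher in U1 and 22 in input.

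The median tested member was higher after MECS by 0.12 on the log2 scale in U1 and in input, against -0.02 over all tested features in both. Of the members tested, 64.6% were above 0 in U1 and 63.8% in input, against 48.1% over all features in U1 and 47.5% in input. Intron features of hosts up to 100 kb, chosen by the same rule apart from host length, had medians of 0.03 in U1 and 0.05 in input, with 2 of 886 past the threshold in U1 and 4 of 837 in input. The difference between the sets was not tested. By distance bin from the nearest to the farthest, the median change was 0.05, 0.06, 0.06, 0.13 and 0.16 in U1 and 0.03, 0.05, 0.10, 0.19 and 0.13 in input. Members that rose numbered 2, 3, 6, 4 and 2 in U1, which is 1.79%, 3.19%, 2.64%, 1.83% and 0.575% of those tested in each bin. In input they numbered 3, 5, 6, 5 and 4, which is 2.97%, 5.75%, 2.78%, 2.38% and 1.21%. The bin of 200 kb or more thus had the lowest share of members that rose in both kinds, while its median change was among the higher ones. Spearman's rho with distance was 0.09 in both kinds, and rho with the member's own mean CPM was 0.23 in U1 (1000 members) and 0.22 in input (945), as descriptions. Within hosts, the farthest minus the nearest member's log2 change had a median of -0.02 over 144 hosts in U1 and 0.03 over 131 hosts in input.

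The counts rest on few animals. In U1 the 17 became 4 without naive U1 1, 62 without naive U1 2 (61 higher), 9 without naive U1 3, 5 without MECS U1 1, 39 without MECS U1 2 (38 higher) and 11 without MECS U1 3. In input the 23 became 6 without naive input 1, 8 without naive input 2, 15 without naive input 3 and 12 without MECS input 3. Of 10 members named for their change in U1, Hif1a, A430028G04Rik and Gm15737 passed under each of the other settings run, and the other 7 lost their call at least without naive U1 1 (Gm47582, Gm47661, Gm47658, Gm47460, Gm11655, Gm17087 and 2010106C02Rik). Of 12 named for their change in input, Hif1a, A430028G04Rik, Gm47582, Kcnq1ot1, Gm47661 and Gm11655 passed under each setting, and the other 6 lost their call at least without naive input 1 (4930579J19Rik, Gm17190, Gm23857, Gm3970, Gm47460 and AC167245.1).

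**Figure D4:**
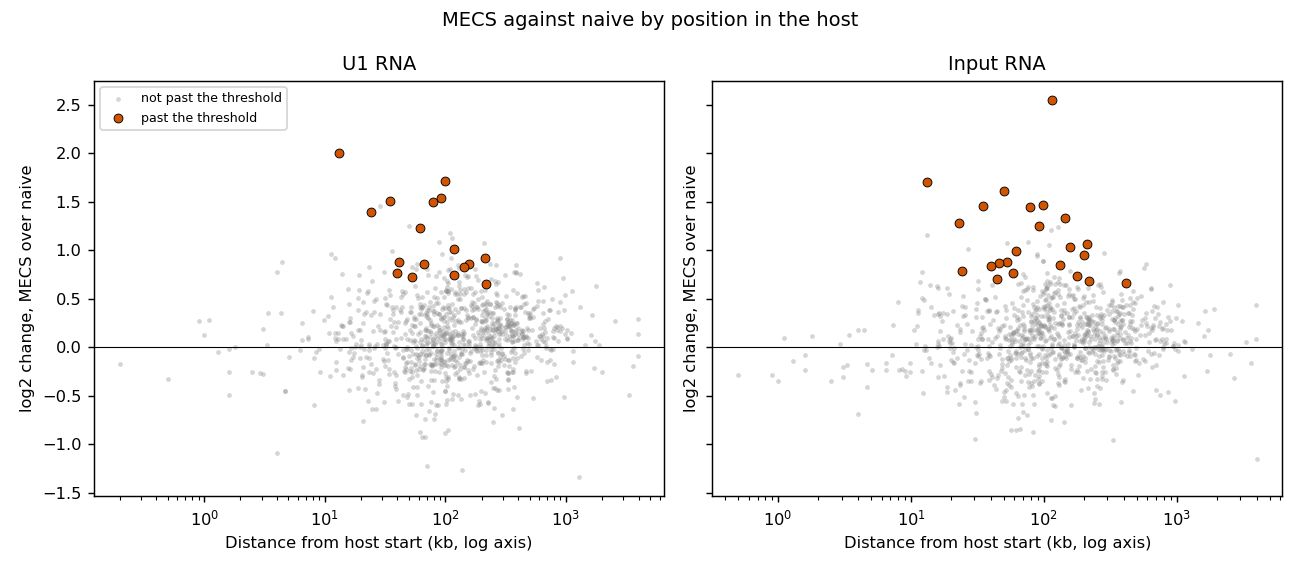
Log2 MECS over naive of each tested member against distance from the host start (log axis, kb), U1 libraries in the left panel and input in the right. Orange points passed at an adjusted p under 0.05, and grey ones did not. Orange points lie above 0 from under 25 kb to over 200 kb, and none lies below 0.

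In hosts for kinases, phosphatases and second messengers, 7 of 33 tested members rose in U1 (21.2%) and 6 of 31 in input (19.4%) and none fell, with a median log2 change of 0.33 in U1 and 0.39 in input. Over all tested features 0.332% rose in U1 and 0.51% in input. This list and those below were chosen with earlier results of these data known. A430028G04Rik, 78.7 kb into Ppm1h, a protein phosphatase that acts on Rab proteins (chr10:122756438-122758410), is the member of the third window above. It had 316.4, 142.4 and 284.7 CPM in MECS U1, against 83.6, 103.7 and 70.9 CPM in naive U1, and 287.3, 134.0 and 287.7 CPM in MECS input, against 71.8, 85.4 and 97.8 CPM in naive input. All MECS libraries lay above all naive ones, with MECS mouse 2 the lowest of the 3 in both kinds. The log2 change was 1.5 ± 0.23 (adjusted p = 0.00198) in U1 and 1.45 ± 0.22 (adjusted p = 0.000324) in input. Gm47582, 99.0 kb from the start of Ppm1h, rose by 1.71 ± 0.32 in U1 and 1.47 ± 0.28 in input.

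Gm11655 lies 156.1 kb into Prkca, which encodes protein kinase C alpha (chr11:108181850-108194126). It had 336.0, 228.1 and 326.1 CPM in MECS U1, against 143.8, 195.8 and 140.9 CPM in naive U1, and 252.7, 221.5 and 261.7 CPM in MECS input, against 103.5, 124.5 and 127.9 CPM in naive input. MECS and naive libraries did not overlap in either kind. It rose by 0.86 ± 0.17 (adjusted p = 0.0182) in U1 and 1.03 ± 0.17 (adjusted p = 0.0013) in input. 2010106C02Rik, 118.4 kb into Prkce (protein kinase C epsilon), rose by 1.01 ± 0.19 in U1 (adjusted p = 0.0119), with 0.72 ± 0.22 in input (adjusted p = 0.129). Gm17087, 41.0 kb into the cyclic nucleotide phosphodiesterase gene Pde10a, rose by 0.88 ± 0.15 in U1 (adjusted p = 0.00691), with 0.64 ± 0.16 in input (adjusted p = 0.0505).

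In presynaptic hosts 2 of 11 tested members rose in U1 (18.2%) and 3 of 11 in input (27.3%), with a median log2 change of 0.41 in U1 and 0.33 in input. Gm47661 is 91.5 kb into Amph, which encodes amphiphysin, a protein of synaptic vesicle endocytosis. It had 173.3, 81.9 and 165.8 CPM in MECS U1, against 39.3, 62.4 and 37.2 CPM in naive U1, and 153.3, 79.5 and 140.5 CPM in MECS input, against 46.2, 50.7 and 57.2 CPM in naive input. The groups did not overlap, and MECS mouse 2 was again the lowest of its group. It rose by 1.54 ± 0.25 (adjusted p = 0.00339) in U1 and 1.25 ± 0.22 (adjusted p = 0.00286) in input. Gm47658, 24.4 kb from the start of Amph, rose by 1.39 ± 0.26 in U1 and 0.79 ± 0.19 in input. Gm17190, 49.9 kb into the synaptic vesicle protein gene Sv2c, rose by 1.61 ± 0.34 in input (adjusted p = 0.0156), with 1.25 ± 0.34 in U1 (adjusted p = 0.119).

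AC167245.1, 40 kb into Nrxn2, a presynaptic neurexin, was the 1 member of 42 tested in U1 and of 41 in input that rose in hosts for synaptic adhesion and guidance. It had 681.2, 544.2 and 636.8 CPM in MECS U1, against 378.5, 353.8 and 352.8 CPM in naive U1, and 674.9, 570.8 and 650.4 CPM in MECS input, against 320.7, 311.3 and 407.6 CPM in naive input. Without overlap between states, it rose by 0.77 ± 0.14 (adjusted p = 0.0103) in U1 and 0.84 ± 0.16 (adjusted p = 0.00446) in input. In hosts known to respond to neuronal activity, 1 of 7 rose in U1 (14.3%) and 2 of 7 in input (28.6%). Gm23857, an rRNA copy in the sorting receptor gene Sorcs3, rose by 1.51 ± 0.30 in U1 and 1.46 ± 0.28 in input, and near-identical copies elsewhere make its count uncertain.

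4930579J19Rik, 114.7 kb into Bmp6, a growth factor gene of the TGF-beta family, had very few reads in naive input. Its estimated MECS over naive change in input was the largest among the members that passed. It had 40.9, 65.8 and 26.6 CPM in MECS U1, against 25.8, 28.2 and 22.5 CPM in naive U1, and 26.5, 18.8 and 10.6 CPM in MECS input, against 1.71, 1.45 and 5.26 CPM in naive input. Between MECS and naive mice the input groups were apart and the U1 groups overlapped. The change was 2.55 ± 0.54 (adjusted p = 0.0149) in input and 0.76 ± 0.29 (adjusted p = 0.324) in U1. It was also higher with U1 than in input, by 1.21 ± 0.33 in MECS mice and 3.02 ± 0.49 in naive mice. The naive input levels are 2, 1 and 7 raw counts, against 36, 21 and 11 in MECS input. The changes of 2.55 and 3.02 are both taken against these few reads, so their size is uncertain.

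Kcnq1ot1 is the long noncoding RNA that silences imprinted neighbours from within Kcnq1, a potassium channel gene, and it is a known transcript in its own right (chr7:143203458-143296549). It had 722.0, 671.3 and 540.9 CPM in MECS U1, against 294.9, 372.9 and 404.6 CPM in naive U1, and 267.5, 210.8 and 204.9 CPM in MECS input, against 59.9, 118.7 and 94.8 CPM in naive input. All 4 groups were apart from one another. In ion channel hosts 1 of 27 tested members rose after MECS in U1 and 2 of 24 in input. Kcnq1ot1 rose by 0.83 ± 0.15 (adjusted p = 0.0103) in U1 and 1.33 ± 0.20 (adjusted p = 0.000324) in input. It was higher with U1 than in input by 1.5 ± 0.15 (adjusted p = 7.86e-07) in MECS mice and 2.01 ± 0.20 (adjusted p = 7.79e-09) in naive mice. 4933417O13Rik in the same host was higher with U1 by 1.48 in MECS mice and 1.87 in naive mice.

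Hif1a, the oxygen-sensing transcription factor, counts as a member because it lies 13.1 kb into the noncoding host Gm15283. It had 194.5, 106.4 and 175.1 CPM in MECS U1, against 27, 59.4 and 24.2 CPM in naive U1, and 152.5, 86.7 and 200.1 CPM in MECS input, against 37.6, 57.9 and 40.6 CPM in naive input. MECS libraries were all higher than naive ones. It rose by 2.0 ± 0.27 (adjusted p = 0.000475) in U1 and 1.70 ± 0.24 (adjusted p = 0.000263) in input, and whether the reads come from Hif1a or from Gm15283 cannot be told apart.

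Gm15737, 61.8 kb into the secreted protease gene Adamts9, had 244.5, 166.1 and 193.7 CPM in MECS U1, against 67.6, 84.0 and 101.2 CPM in naive U1, and 124.5, 100.1 and 98.1 CPM in MECS input, against 46.2, 52.1 and 60.9 CPM in naive input. The states were apart in both kinds. It rose by 1.23 ± 0.18 (adjusted p = 0.00198) in U1 and 0.99 ± 0.20 (adjusted p = 0.0104) in input. Gm47460, 211.3 kb into the ataxin gene Atxn1, rose by 0.92 ± 0.20 in U1 and 1.06 ± 0.22 in input. Gm3970, 23.1 kb into Cux2, a transcription factor of upper cortical layers, rose by 1.28 ± 0.29 in input, with 0.83 ± 0.28 in U1.

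**Figure D5:**
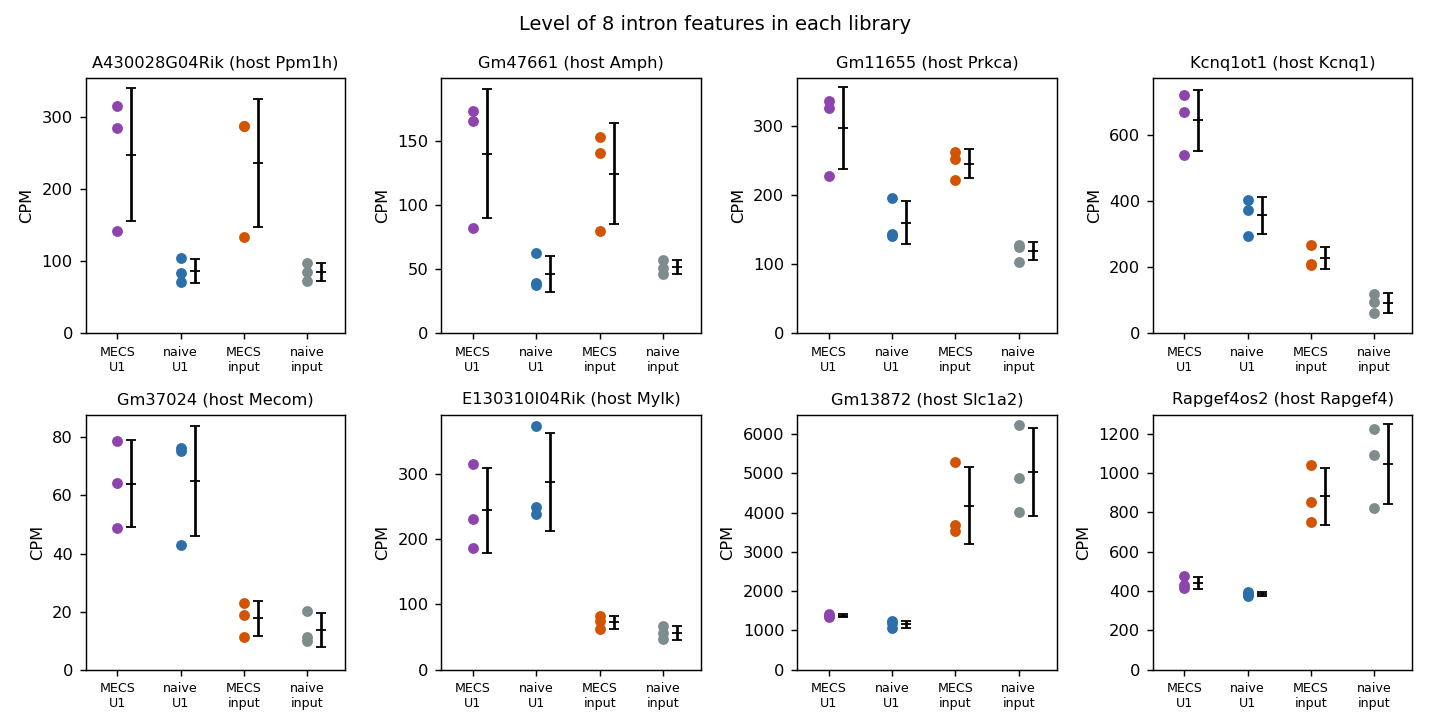
CPM in each library for 8 members, on linear axes that start at 0, with the mean and SD of 3 libraries beside the points, U1 groups left of input groups and MECS left of naive. A430028G04Rik, Gm47661, Gm11655 and Kcnq1ot1 are higher in MECS than in naive libraries, Kcnq1ot1, Gm37024 and E130310I04Rik are higher in U1 than in input, and Gm13872 and Rapgef4os2 are lower in U1 than in input.

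Several host lists held no member that passed after MECS. Over all tested features 0.332% rose in U1 and 0.51% in input, so the lack of calls does not set lists this short apart. In RNA-binding and splicing regulator hosts 0 of 10 rose, with medians of 0.20 in U1 and 0.17 in input. Srrm4os in Srrm4, the neuronal microexon regulator, had 0.63 ± 0.16 in U1 (adjusted p = 0.083) and 0.55 ± 0.15 in input (adjusted p = 0.0757). In glutamate and GABA receptor hosts 0 of 5 rose, with Gm14330 in the NMDA receptor gene Grin2b at -0.06 ± 0.16 in U1 and 0.21 ± 0.19 in input. 4930415C11Rik in Ntrk2, the BDNF receptor gene, had 0.85 ± 0.20 in U1 (adjusted p = 0.0622) and 0.65 ± 0.18 in input (adjusted p = 0.0954). None of 8 vascular members in U1 and 7 in input, of 3 astrocyte members or of 2 oligodendrocyte members passed, and the single member in a microglial host was not tested.

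Whether the shock changed the U1 to input ratio itself was tested as an interaction over all 12 libraries. None of 1025 tested members passed (0 of all 12184 features, 0%), with a lowest adjusted p of 0.997. The median difference of log2 ratios was 0.02, against 0.01 over all features. At an unadjusted p under 0.05, 8 members were higher and 12 lower, and DESeq2 and limma-voom called 0. In data simulated for this comparison (11827 features), 41 of 63 features whose ratio changed 4-fold were called (65.1%), 7 of 64 changed 2-fold (10.9%) and 0 of 64 changed 1.5-fold. Changes of the ratio below about 4-fold were mostly not detectable at this depth and number of animals.

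Intron features of hosts up to 100 kb also included both directions with U1. Of 1202 such features, 48 of 855 tested were higher and 18 lower in MECS mice, and 56 of 861 higher and 28 lower in naive mice. The lower ones touched a host exon in 14 of 18 cases in MECS mice and 23 of 28 in naive mice. Among all tested features of these shorter hosts, 418 of 855 touched a host exon in MECS mice and 430 of 861 in naive mice, a larger share than the 20.0% in MECS mice and 20.2% in naive mice among members of long hosts. The lower members in long hosts did so in 27 of 28 cases in MECS mice and 27 of 31 in naive mice, and the difference between the 2 sets was not tested.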

How the data were processed

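The 12 libraries are single-end 100 bp reads from a stranded total RNA kit after removal of ribosomal RNA, per the labels' protocols. For each library the deposited file lists raw counts by feature, with further rows for reads outside genes, which stayed out of library sizes and tests (88.3% to 91.3% of the listed reads were in no feature). The submitters' processing notes list the build mm10 and, in no stated order, HISAT2 2.2.0, Salmon 1.4, DESeq2, StringTie 2.1.3, FastQC and Trimmomatic 0.39. Which of them made the counts, and with which strand setting, was not stated.

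Positions came from GENCODE M21, in which 55144 of 55471 identifiers were found. Members and host lists were chosen with earlier results of these data known. Distance runs from the host's annotated start to the mean position of the member's exon bases inside the host; 68 members fall in another distance bin by the middle of their span. Features were tested in R 4.3.3 with edgeR 4.0.16 (quasi-likelihood, TMM scaling, filterByExpr), adjusted by Benjamini-Hochberg over all features tested, at 0.05, in 4 comparisons of 2 groups of 3 libraries and 1 interaction over all 12. Of the 1229 members, 945 to 1025 passed the filter on low counts in a comparison and 202 in none; of the 930 with a mean of at least 10 CPM, 919 were tested in all 5. The edgeR steps were tested on simulated data: of features changed 4-fold, 96.8% were called in the MECS over naive input comparison (10461 features), and of those changed 2-fold 59%. CPM levels use the TMM factors and no pseudocount, and levels per kb of exon are medians over members. Log2 ratios of U1 to input per animal use a pseudocount of 0.5 CPM. Within-host differences of log2 level use 0.1 CPM per exon kb. DESeq2 1.42.0 and limma 3.58.1 (voom) were alternatives, with other scalings, filters, a replicate block and each library left out in turn. Animals were told apart only by sample names, so p-values measure the spread between these samples.

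Members were named by rule: in each comparison and direction the up to 10 with the largest change among those past the threshold, with a mean log2 CPM of at least 2 and groups that do not overlap; the 6 most abundant; the 2 nearest and 2 farthest from the host start; those of the 6 hosts with the most members; per host list the 3 with the smallest p; and per distance bin the 1 with the smallest p in 2 of the comparisons. The sample names give U1 and input of 1 animal the same number, so these pair. Their deviations from the group means correlated at 0.101, 0.207 and 0.107 in MECS mice and 0.018, -0.09 and -0.014 in naive mice (12184 features).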

Additional observations from a re-analysis of the deposited data

Results flagged for a closer look

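Acta1, the skeletal muscle actin gene, lies 3982.0 kb into the span of Gm20388 and was picked out because its U1 to input ratio had opposite signs in the 2 states. Its level was 28.0, 26.0 and 23.5 CPM in MECS U1, against 11.8, 13.4 and 18.3 CPM in MECS input. In naive mice it was 18.4, 25.2 and 17.3 CPM in U1, against 39.3, 33.3 and 22.6 CPM in input. The log2 ratio per animal was 1.21, 0.93 and 0.35 in MECS mice and -1.07, -0.4 and -0.37 in naive mice, a difference of means of 1.45. This pattern of signs was not tested as such. The interaction in edgeR's quasi-likelihood test gave a log2 difference of 1.43 ± 0.43 (SE), with an unadjusted p of 0.0021 and an adjusted p of 0.997, so it did not pass.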

How the results depend on the processing

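The count of members that changed after MECS moved most. In input the 23 became 42 with scaling by library size and 39 with the replicate block, and 6 to 29 when 1 library was left out. In U1 the 17 became 41 without a filter on low counts, 29 with a filter of 1 CPM in 3 libraries, 33 with DESeq2 and 30 in 1 fit of all 12 libraries, and 4 to 62 when 1 library was left out. U1 over input gave 44 to 73 members in MECS mice and 53 to 102 in naive mice when 1 library was left out, against 76 in MECS mice and 95 in naive mice with all libraries. Chosen after seeing the data, the count over members with no host exon base was 35 in MECS mice (34 higher and 1 lower of 786 tested). In naive mice it was 51 (47 higher and 4 lower of 778 tested). Over all members, 48 were higher and 28 lower in MECS mice, and 64 higher and 31 lower in naive mice, so the lower calls fell most. On the members with no host exon base, the log2 ratio of those under 50 kb minus the rest was 0.004 in MECS mice and 0.018 in naive mice. The interaction stayed at 0 members under every alternative run, and the difference by host exon contact stayed within 1 SD of its value under those run for it. No count or ratio changed direction, while the order of U1 and input in the share near the host start did, as given below.

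Animals pair U1 with input, and this replicate block raised the MECS count to 128 members, of which 30 of the 36 lower ones touch a host exon. MECS and naive mice share only a number: deviations of same-numbered libraries correlated at 0.011, -0.007 and -0.091 in U1 and 0.058, -0.026 and -0.001 in input. The cause of these moves was not tested.

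The share of counts near the host start depends on its definition. In MECS U1, naive U1, MECS input and naive input it was 17.1%, 17.4%, 15.7% and 15.7% by the member's edge nearest the host start. It was 18.3%, 18.7%, 16.8% and 16.9% in the first 0.25 of the host, and 35.9%, 36.4%, 36.1% and 37.2% within 100 kb. Measured to the middle of the member's span, an alternative chosen after seeing the data, it was 14.3%, 14.4%, 13.0% and 12.9%. Over members with no host exon base it was 17.2%, 17.2%, 16.9% and 17.0%, and without the 3 highest members 15.2%, 15.4%, 14.2% and 14.3%. U1 lay above input with the limit of 50 kb and below it with that of 100 kb.

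Of 65 named calls, 46 passed under every alternative run. With U1, those lost under some were Srf in both states, Gm20735 and Gm10847 in naive mice, and 1700119H24Rik and Gm13372 in MECS mice. Low counts limit the members under 10 CPM, and 202 were tested in no comparison.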
